A study of Mus musculus with 6 samples.

Results

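Cholesterol synthesis and SREBP2 genes are described here as a set of 32 named mouse genes, made up of enzymes of the mevalonate and sterol pathways, the regulator SREBP2 with the proteins that process it, and proteins that move or store cholesterol. They were listed by name and pathway, with earlier results of these data known, and the measured value in the rule was a mean of at least 0.5 TPM (transcripts per 1000000) over the 6 libraries. All 32 were found by symbol among the 55487 gene identifiers, and all 32 were among the 13829 genes at or above that mean, so that none was lost to the filter. TPM is a read count divided by the length of the gene and scaled so that each library sums to 1000000. Levels of different genes can be set beside each other on this scale where their reads are not shared with other genes.

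The libraries came from J774 cells, a mouse macrophage line, of which the study grew clone E. Small interfering RNAs, short RNAs that lower the transcript they match, were brought into the cells with liposomes. The groups were control siRNA and NCOA4 siRNA, each with 3 libraries labelled as biological replicates, and they shared the cell line and the transfection. The study names a single NCOA4 siRNA, so an effect of that sequence on other transcripts and the effect of lower Ncoa4 cannot be told apart in these data. The interval between transfection and RNA isolation is not given for these libraries in the sources used here, although the study names a culture time after transfection for its first knockdown experiment. *Ncoa4*, the cargo receptor that takes ferritin to the lysosome, was measured at 19.7, 22.5 and 22.4 TPM in control siRNA 1 to 3 and at 9.63, 8.60 and 8.88 TPM in NCOA4 siRNA 1 to 3. The knockdown was partial, with 41.9% of the control mean remaining (log2 fold change -1.21 ± 0.0767 SE, limma adjusted p = 0.00127), and the groups did not overlap.

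Cholesterol is built from acetyl-CoA. The mevalonate pathway turns acetyl-CoA into isoprenoid units, these are joined to farnesyl pyrophosphate and then squalene, and a series of ring closure, demethylation, reduction and isomerization steps leads to cholesterol. SREBP2 is the transcription factor that turns most of these genes on. It is made in the endoplasmic reticulum and held there by SCAP and the INSIG proteins while sterol is plentiful, and when sterol falls, SCAP carries it to the Golgi, where proteases release the part that enters the nucleus. Macrophages also take up large amounts of cholesterol with the particles and cells they engulf, which leaves lysosomes through the NPC proteins and is stored as esters made by SOAT1.

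SREBP2 acts with the factor NF-Y, which recognises the CCAAT box, so both motifs were looked up in promoter windows of 250 bases before to 50 bases after a gene's start (RefSeq, GRCm38.p6). The table held 33 windows for 27 of the 32 genes. Stretches of 30 bases around each match are shown for *Hmgcs1*, *Mvd* and *Cyp51*, since these were the genes with a window that passed the test across all genes. They are written 5′ to 3′ on the strand of the gene, and capitals mark the motif, which is a sterol regulatory element (TCACNCCAC) in the first stretch and a CCAAT box (CCAAT or its reverse complement ATTGG) in the others.
Hmgcs1, sterol element, chr13:119690204-119690233, plus strand: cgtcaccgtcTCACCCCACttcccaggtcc
Hmgcs1, CCAAT box, chr13:119690293-119690322, plus strand: gtccccgcctctcATTGGctgaaagcggat
Mvd, distal CCAAT box, chr8:122443466-122443495, minus strand: cggcctgtcgcctATTGGacagcacgggaa
Mvd, proximal CCAAT box, chr8:122443433-122443462, minus strand: cccggccagcgggCCAATcatatggcagcg
Cyp51, CCAAT box, chr5:4104710-4104739, minus strand: ccgctgtccgccaCCAATctggtcctgaga

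On both strands, the CCAAT box was found in 23 of the 33 windows (69.7%), which belonged to 23 of the 27 genes, and in 37.4% of the 32851 windows of all genes. The letters of the sterol element were found in 1 of the 33 windows (3.03%), that of *Hmgcs1*, and in 1.24% of all windows. Only this pattern of letters was searched, so variants of the element and sites outside the windows were not counted. The genes that hold a CCAAT box in a window included *Ggps1*, *Soat1* and *Acss2*, whose log2 fold changes were below 0, as well as *Hmgcs1*, *Mvd* and *Cyp51*. A match of letters is a description of the window and not a measured binding site.

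Rebuilt read totals were between 15268845 and 17996400 per library, with control siRNA 1 inside this range at 16676533. Control siRNA 1 stood apart in its mitochondrial share and had the largest gap to its group mates. The genes of the mitochondrial genome took 12.9% of TPM in control siRNA 1 and 9.36% to 10.2% in the other 5 libraries, and its median absolute log2 gap to its group mates was 0.134, where it was 0.0714 to 0.115 in the others. Of the macrophage markers fixed as a check of the label, 8 of 8 were detected, at 33 to 5466 TPM, and no marker of fibroblasts, lymphocytes or epithelial cells (0 of 5, 0 of 5 and 0 of 4) reached 0.5 TPM in any library. The summed level of the macrophage markers was 7472 to 7601 TPM with control siRNA and 7890 to 8036 TPM with NCOA4 siRNA. Its largest parts went opposite ways, and neither passed the adjusted threshold. *Lyz2* was at 4683 to 5067 TPM with control siRNA and 5364 to 5466 TPM with NCOA4 siRNA. *Cd68* was at 1709 to 2060 TPM and 1507 to 1612 TPM. In bulk RNA, a shift in the share of cells and a shift in RNA per cell cannot be told apart.

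The 32 genes were measured at similar or slightly higher levels with NCOA4 siRNA, and the genes that passed the test were enzymes. Differences are log2 fold changes of TPM + 0.5, NCOA4 siRNA minus control siRNA, so positive values are higher after knockdown. Of the 32, 25 had a log2 fold change above 0 and 7 below 0, beside 7933 above and 5896 below among the 13829 tested genes. The median of the 32 was 0.14, with a range of -0.10 to 0.73, where the median of all tested genes was 0.03. With each library centred on its median gene, the medians were 0.09 and -0.03, and *Pmvk*, *Fdft1*, *Sqle*, *Dhcr7* and *Insig2* moved to just below 0. *Cyp51* missed the adjusted threshold with this centring. Only *Hmgcs1*, *Mvd*, *Fdps* and *Cyp51* rose at an adjusted p under 0.05 (limma, Benjamini-Hochberg over all tested genes), which is 4 of 32, beside 3.11% of all tested genes in that direction and 5.42% in either direction. None of the 32 fell at that threshold, beside 2.31% of all tested genes. At the study's thresholds, which add a fold change above 1.5, *Fdps* alone was called, 1 of 32 beside 0.861% of all tested genes. At an unadjusted p under 0.05, 14 of the 32 were higher and 0 lower. Of the 13829 tested genes, 1760 were higher (12.7%) and 1222 lower.

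The groups did not overlap for 17 of the 32 genes. For 16 of them the 3 NCOA4 siRNA libraries lay above the 3 control siRNA libraries, beside 16.6% of all tested genes, and for *Ggps1* they lay below, beside 11.8%. With 3 libraries against 3, an exact two-sided permutation test cannot give a p below 0.1, and each of these 17 genes reached that value. Summed over the 32 genes, the level was 1792, 1967 and 1959 TPM in control siRNA 1 to 3 and 2143, 2088 and 2114 TPM in NCOA4 siRNA 1 to 3. All NCOA4 siRNA sums were above all control sums, and control siRNA 1 was the lowest. It was the lowest library for 18 of the 32 genes (56.2%), and for 34.5% of all tested genes. Without it, the median log2 fold change of the 32 genes was 0.10 and that of all tested genes 0.01.

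**Figure D1:**
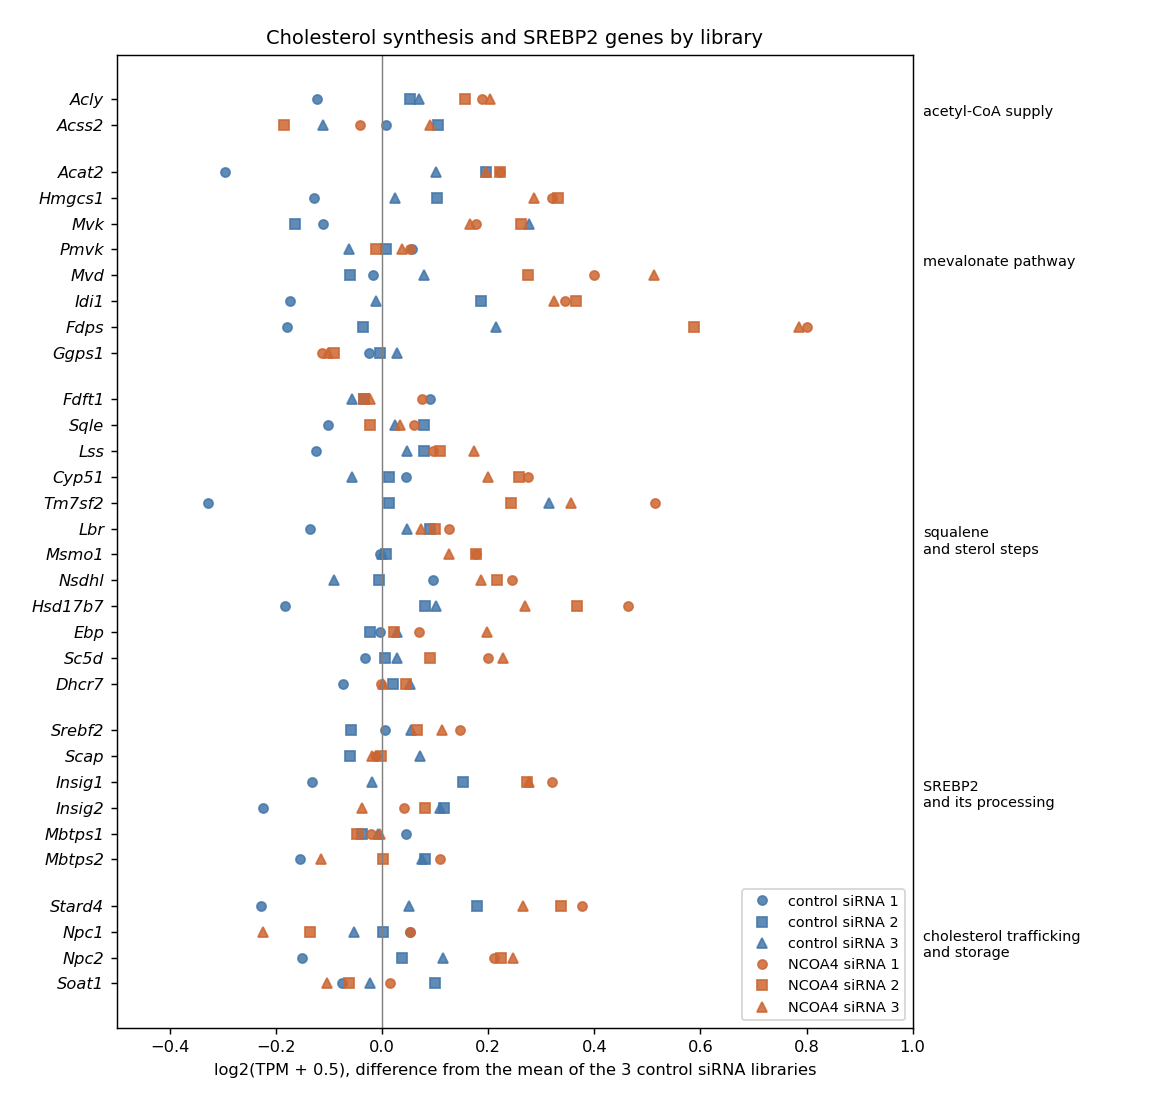
Each point is 1 library of 1 gene, plotted as its log2(TPM + 0.5) minus the mean of the 3 control siRNA libraries (horizontal axis), with the 32 genes in rows grouped by role. NCOA4 siRNA libraries lie to the right of the control siRNA libraries for 16 genes and to the left for *Ggps1*, and control siRNA 1 is the leftmost point for 18 genes.

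The counts were also split between the enzymes and the other genes of the set. Among the 22 enzymes of synthesis, acetyl-CoA supply included, 20 had a log2 fold change above 0 (*Pmvk*, *Fdft1*, *Sqle* and *Dhcr7* not with centring) with a median of 0.18, 12 lay wholly above control and 4 passed the adjusted threshold. Among the 10 genes that encode no enzyme of synthesis, 5 were above 0 (*Insig2* not with centring) and 5 below with a median of 0.01, 4 lay wholly above control and 0 passed. Of all 13829 tested genes, 7933 were above 0, 16.6% lay wholly above control and 3.11% rose at the adjusted threshold. With limma-voom on rebuilt reads, 9 of 21 enzymes and 3 of the 10 other genes were higher at an adjusted p under 0.05. With that test, 6.93% of all tested genes with whole reads were higher. The difference between these parts of the set was not tested. Exons of *Acss2*, *Ggps1*, *Cyp51* and *Npc1* overlap a measured gene on the opposite strand (*Gss*, *Arid4b*, *Akap9* and *Rmc1*), and those of *Tm7sf2* overlap *Vps51* on the same strand, so a part of their reads may belong to the neighbour.

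Acetyl-CoA is supplied to the cytosol by *Acly*, which cleaves citrate, and *Acss2*, which activates acetate. *Acly* had the highest level of the 32 genes, at 224, 253 and 256 TPM with control siRNA and 278, 272 and 281 TPM with NCOA4 siRNA. Its groups did not overlap, with a log2 fold change of 0.18 ± 0.0567 (SE), which did not pass (adjusted p = 0.128, limma) and was 0.12 without control siRNA 1. *Acss2* was near the low end of the set, between 3.74 and 4.68 TPM in all 6 libraries, and its groups overlapped.

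The mevalonate pathway held the largest differences, with a median log2 fold change of 0.27. Of its 8 genes, 3 rose past the adjusted threshold, beside 3.11% of all tested genes. *Acat2*, which joins acetyl-CoA units, was at 78.1, 110 and 103 TPM with control siRNA and at 112, 112 and 110 TPM with NCOA4 siRNA. Apart from control siRNA 1, its libraries lay within 103 to 112 TPM, and its log2 fold change fell from 0.21 with all libraries to 0.07 without that one. A stretch of 445 bases of *Acat2* matches the abundant *Tcp1* at 98.7%, so reads there may be shared. *Hmgcs1*, which makes HMG-CoA, rose from 94.4, 111 and 105 TPM to 129, 130 and 126 TPM. Every NCOA4 siRNA library of *Hmgcs1* was above every control siRNA library, with a log2 fold change of 0.32 ± 0.0622 (1.24-fold, 95% confidence interval on the log2 scale 0.17 to 0.46, limma adjusted p = 0.0364). With 1 library left out, the adjusted p (limma) of *Hmgcs1* was 0.0240 and 0.0351 without control siRNA 1 or 2, 0.0856 without control siRNA 3, and 0.119 to 0.15 without an NCOA4 siRNA library.

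*Mvk* and *Pmvk* add phosphate groups to mevalonate in turn. *Mvk* was at 29.4, 28.3 and 38.6 TPM with control siRNA and 36.0, 38.2 and 35.7 TPM with NCOA4 siRNA. Control siRNA 3 was as high as the knockdown libraries, so its groups overlapped (log2 fold change 0.20 ± 0.115, limma adjusted p = 0.362). *Pmvk* stayed between 57.3 and 62.3 TPM in all 6 libraries. *Mvd*, whose enzyme removes carbon dioxide to give isopentenyl pyrophosphate, was at 64.2, 62.3 and 68.7 TPM with control siRNA and at 85.9, 78.8 and 93.0 TPM with NCOA4 siRNA. Its lowest NCOA4 siRNA library was above its highest control siRNA library, and it rose by a log2 fold change of 0.40 ± 0.0698 (1.32-fold, interval 0.23 to 0.56, limma adjusted p = 0.0254). The adjusted p (limma) of *Mvd* was 0.0503 to 0.114 when any 1 library was left out.

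*Idi1*, which isomerizes isopentenyl pyrophosphate, was at 19.6, 25.3 and 22 TPM with control siRNA and at 28.3, 28.7 and 27.9 TPM with NCOA4 siRNA. The knockdown libraries were close to each other and all above control, but the log2 fold change of 0.34 ± 0.0902 did not pass (adjusted p = 0.0821, limma). A processed pseudogene, *Gm13502*, matches *Idi1* at 100% over 684 bases and was listed at a mean of 1.27 TPM. *Ggps1*, which makes geranylgeranyl pyrophosphate for protein prenylation and so leads away from sterols, was at 13, 13.2 and 13.5 TPM with control siRNA and at 12.2, 12.4 and 12.3 TPM with NCOA4 siRNA. It was the only gene of the 32 whose knockdown libraries all lay below control, by a log2 fold change of -0.10 ± 0.0537 that did not pass (adjusted p = 0.335, limma).

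*Fdps*, which makes farnesyl pyrophosphate, had the largest log2 fold change of the 32 genes and the lowest level, counting only reads assigned to its own identifier. It was at 1.41, 1.61 and 2.01 TPM with control siRNA and at 3.27, 2.75 and 3.23 TPM with NCOA4 siRNA, and the groups did not overlap. Its log2 fold change was 0.73 ± 0.157 (1.66-fold, interval 0.35 to 1.10, limma adjusted p = 0.0481). These levels rest on 34, 41 and 44 rebuilt reads with control siRNA and on 80, 63 and 82 with NCOA4 siRNA. The adjusted p was 0.0847 without control siRNA 1 and between 0.0597 and 0.171 over the fits that left out 1 library each, so the call rests on all 6.

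The value of *Fdps* is uncertain, since an overlapping gene shares exon sequence with it and other loci hold near-identical copies of it. The overlapping gene, *Gm43738*, is annotated as protein-coding on the same strand. It matches *Fdps* at 100% over 929 bases and was listed at a mean of 0 TPM. How reads on the shared exons were counted is not given in the sources used here. Processed pseudogenes named *Gm3571* (98.9% identity over 1062 bases) and *Gm5873* (96.7% over 1066 bases) were listed at means of 48.2 and 14.2 TPM, far above *Fdps* itself. *Gm3571* was at 25.3, 47.2 and 51.0 TPM with control siRNA and at 56.5, 51.4 and 58 TPM with NCOA4 siRNA. Its groups did not overlap by a narrow margin, its log2 fold change of 0.48 did not pass (adjusted p = 0.315, limma), and it was 0.17 without control siRNA 1. Summed over *Fdps* and its processed pseudogenes, the reads were 270, 444 and 394 with control siRNA and 529, 449 and 536 with NCOA4 siRNA. Per 1000000 reads this was 22.2 ± 5.25 against 30 ± 1.37 (mean ± SD, n = 3 each, exact permutation p = 0.1, the smallest possible), and *Fdps* itself took 9.23% to 12.6% of these reads with control siRNA and 14.0% to 15.3% with NCOA4 siRNA.

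**Figure D2:**
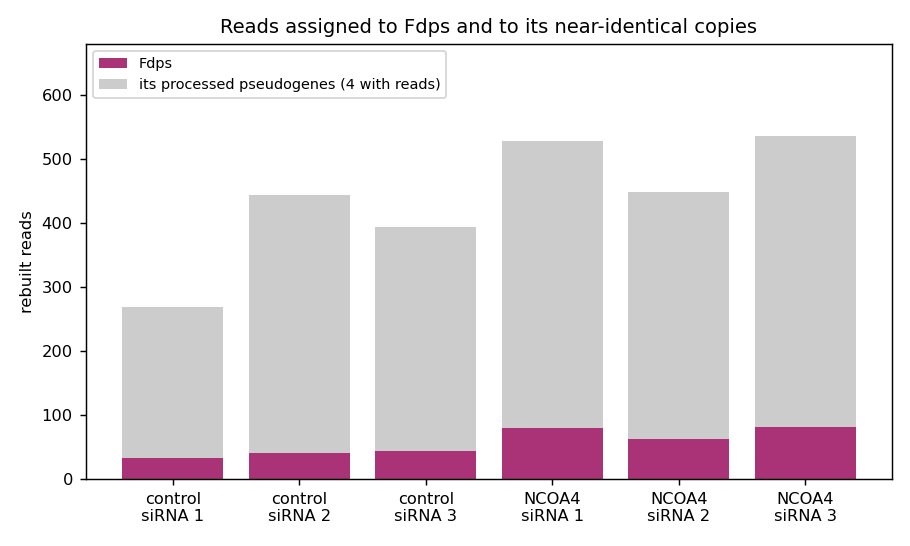
Bars give the rebuilt reads of each library (vertical axis, not scaled for depth) assigned to *Fdps* (coloured part) and to its near-identical processed pseudogenes (grey part). *Fdps* has 34 to 44 reads in the control siRNA libraries and 63 to 82 in the NCOA4 siRNA libraries, a small part of each bar, and control siRNA 1 has the shortest bar, with 270 reads in all.

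**Figure D3:**
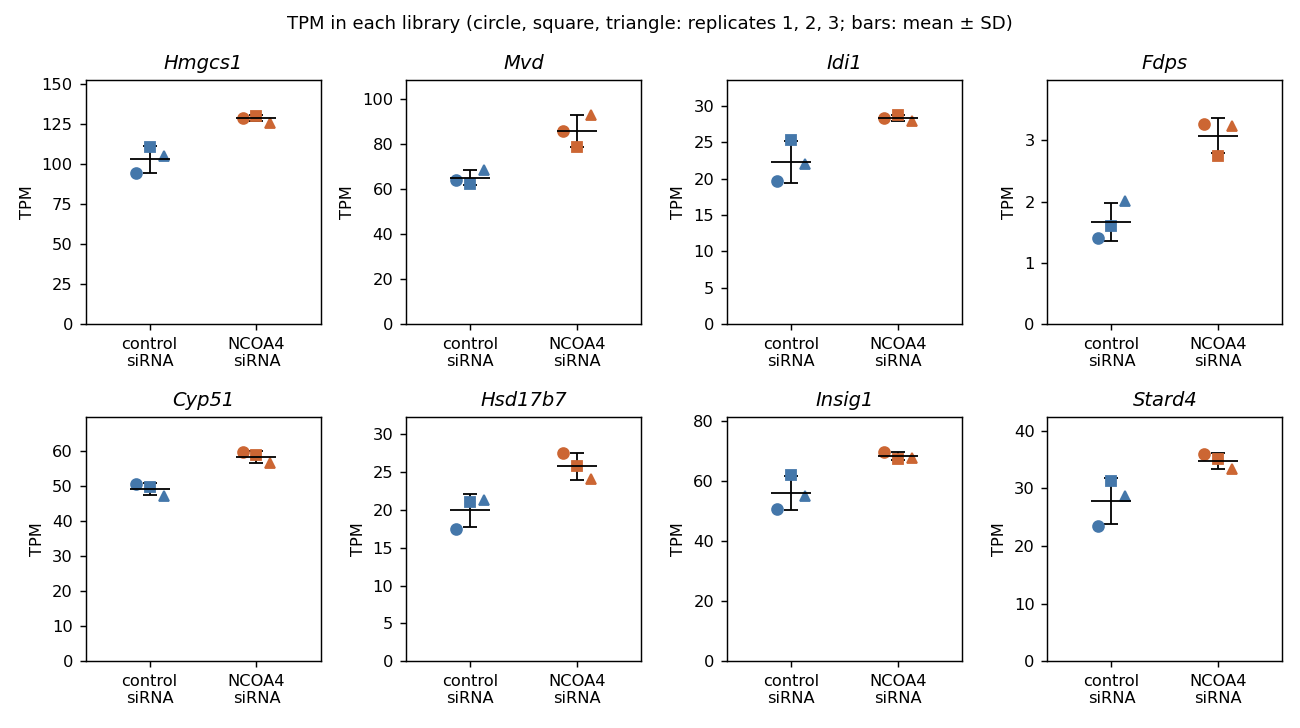
Each panel is 1 gene, with the TPM of every library (vertical axis, from 0) for control siRNA and NCOA4 siRNA, and black bars for the mean and SD of 3 libraries. In all 8 panels the NCOA4 siRNA libraries lie above the control siRNA libraries; *Hmgcs1*, *Mvd*, *Fdps* and *Cyp51* passed the adjusted threshold, and *Idi1*, *Hsd17b7*, *Insig1* and *Stard4* did not.

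All 12 genes of the squalene and sterol steps had log2 fold changes above 0 (*Fdft1*, *Sqle* and *Dhcr7* below 0 with centring), beside 7933 of all 13829 tested genes. Their median was 0.14, and 6 of the 12 lay wholly above control, beside 16.6% of all tested genes. *Cyp51* alone passed, beside 3.11% of all tested genes that rose at the adjusted threshold. The first steps were close to the median of all genes. *Fdft1*, squalene synthase, ranged from 33.1 to 36.7 TPM over the 6 libraries with a log2 fold change of 0.01, which was -0.05 once each library was centred on its median gene. Its exons overlap those of *Ctsb* on the opposite strand, a lysosomal protease gene at a mean of 1255 TPM that fell by 0.24 on the log2 scale (limma adjusted p = 0.0337), and the strand setting of the counting is not given in the sources used here. *Sqle*, squalene epoxidase, ranged from 143 to 162 TPM with a log2 fold change of 0.02, which was -0.03 with centring and also -0.03 without control siRNA 1. *Lss*, which closes the rings to lanosterol, was at 19.9, 23.0 and 22.5 TPM with control siRNA and at 23.3, 23.5 and 24.6 TPM with NCOA4 siRNA. Its groups were separate by a small margin, and its log2 fold change of 0.13 did not pass (adjusted p = 0.328, limma) and was 0.07 without control siRNA 1.

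*Cyp51*, the haem enzyme that demethylates lanosterol, is the target of azole antifungals in fungi and is shared by nearly all sterol-making cells. It was at 50.8, 49.7 and 47.3 TPM with control siRNA and rose to 59.7, 59.0 and 56.6 TPM with NCOA4 siRNA. The gap between the groups was wider than the range within either, with a log2 fold change of 0.24 ± 0.0459 (1.18-fold, interval 0.14 to 0.35, limma adjusted p = 0.0312). With 1 library left out, its adjusted p (limma) was 0.0296 without control siRNA 1, 0.0663 and 0.0792 without control siRNA 2 or 3, and 0.0921 to 0.139 without an NCOA4 siRNA library. It also missed the threshold with median centring (0.0784) or without the mitochondrial genes (0.0574).

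The demethylation complex that follows also had its knockdown libraries above control, without passing the test. *Msmo1*, the oxygenase of this complex, was at 37.3, 37.6 and 37.4 TPM with control siRNA and at 42.4, 42.4 and 40.9 TPM with NCOA4 siRNA (log2 fold change 0.16, limma adjusted p = 0.0707). *Nsdhl*, its dehydrogenase, was at 49.4, 46.0 and 43.3 TPM with control siRNA and at 54.8, 53.7 and 52.6 TPM with NCOA4 siRNA (log2 fold change 0.22, limma adjusted p = 0.0815). *Hsd17b7*, its ketoreductase, was at 17.4, 21.0 and 21.3 TPM with control siRNA and at 27.5, 25.7 and 24.0 TPM with NCOA4 siRNA (log2 fold change 0.37, limma adjusted p = 0.0741). The control libraries of *Msmo1* were nearly equal, while those of *Hsd17b7* were spread by control siRNA 1.

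*Tm7sf2* and *Lbr* encode sterol reductases, of which LBR is also a protein of the nuclear envelope. *Tm7sf2* was low, at 2.53, 3.34 and 4.23 TPM with control siRNA and at 4.93, 4 and 4.37 TPM with NCOA4 siRNA, so that its groups overlapped despite a log2 fold change of 0.37 ± 0.178, which was 0.21 without control siRNA 1. *Lbr* was far higher (154 against 3.36 TPM at the control mean) and its groups also overlapped, with a log2 fold change of 0.10 that was 0.03 without control siRNA 1. *Sc5d*, a desaturase, was at 29.8, 30.6 and 31.1 TPM with control siRNA and at 35.1, 32.5 and 35.8 TPM with NCOA4 siRNA. Its knockdown libraries all lay above control, but its log2 fold change of 0.17 did not pass (adjusted p = 0.121, limma). The isomerase gene *Ebp* overlapped between groups at 61.5 to 71.7 TPM, and *Dhcr7*, which carries out a last reduction to cholesterol, overlapped at 36.7 to 40.1 TPM with a log2 fold change of 0.02, or -0.04 with centring and -0.02 without control siRNA 1.

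**Figure D4:**
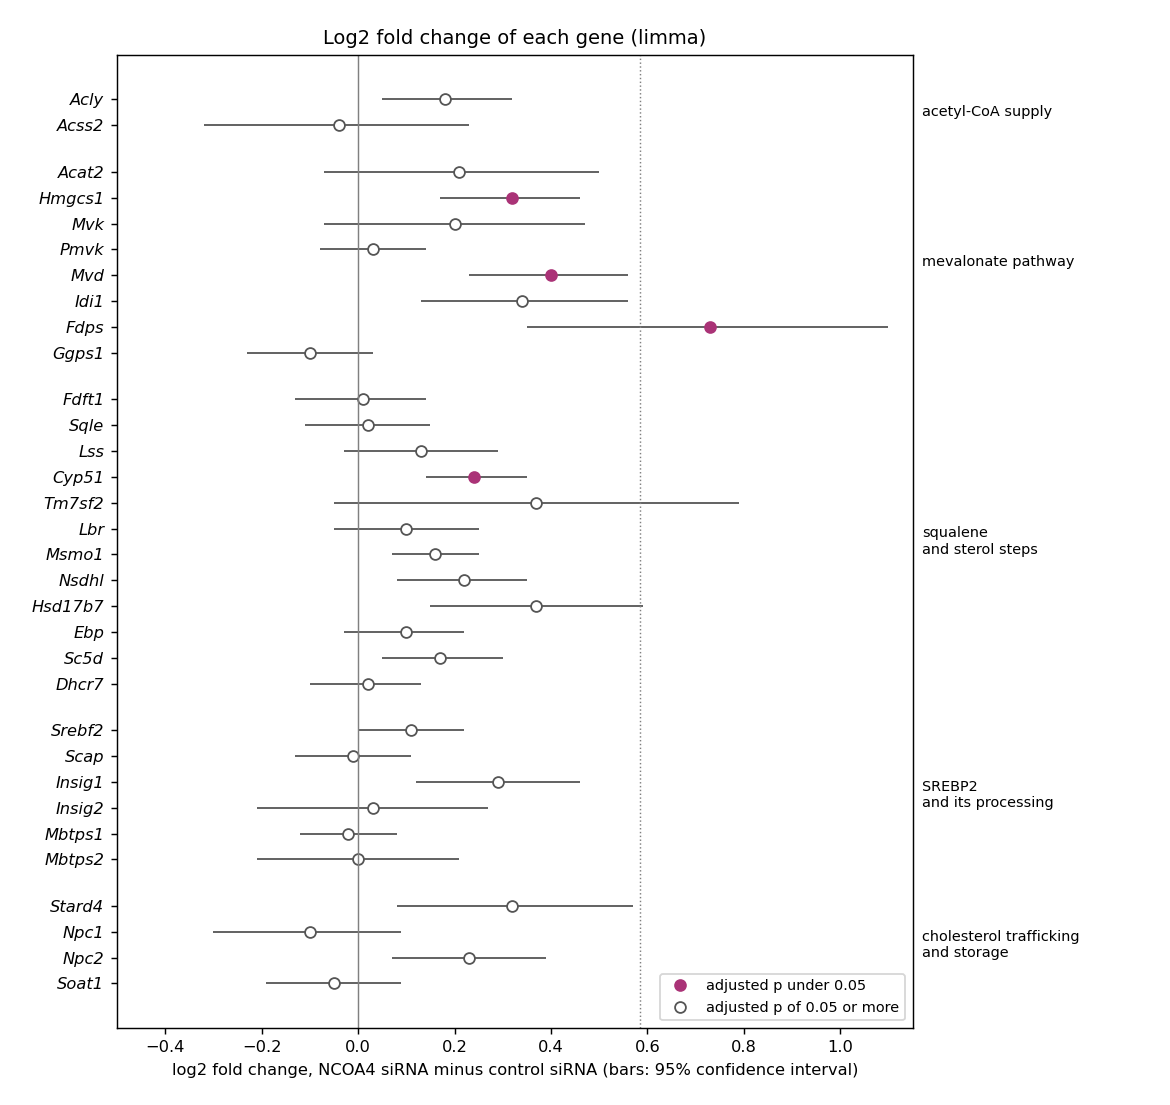
Points give the log2 fold change of each of the 32 genes (horizontal axis, NCOA4 siRNA minus control siRNA, limma on log2(TPM + 0.5)), bars the 95% confidence interval, filled points an adjusted p under 0.05, and the dotted line a 1.5-fold difference. The filled points are *Hmgcs1*, *Mvd*, *Fdps* and *Cyp51*, and *Fdps* is the only point beyond the dotted line.

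The genes of SREBP2 and its processing had a median log2 fold change of 0.01, and 0 of 6 passed. *Srebf2*, which encodes SREBP2, was at 116, 111 and 120 TPM with control siRNA and at 128, 121 and 125 TPM with NCOA4 siRNA. Its knockdown libraries all lay above control, the nearest pair being control siRNA 3 and NCOA4 siRNA 2, and the log2 fold change of 0.11 ± 0.0455 did not pass (adjusted p = 0.232, limma). *Insig1*, which holds SREBP2 back and is itself a target of SREBP2, was at 50.7, 61.9 and 54.9 TPM with control siRNA and at 69.6, 67.3 and 67.5 TPM with NCOA4 siRNA. The knockdown libraries of *Insig1* were above control and close together, and its log2 fold change of 0.29 ± 0.0731 did not pass (adjusted p = 0.0753, limma).

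The remaining processing genes overlapped between the groups. *Insig2*, a relative of *Insig1*, was at 11.8 to 15.1 TPM with a log2 fold change of 0.03, which was -0.03 with centring and -0.08 without control siRNA 1. *Scap*, the escort of SREBP2, was at 30.5 to 33.5 TPM with a log2 fold change of -0.01. The Golgi protease genes *Mbtps1* and *Mbtps2* were at 41.5 to 44.3 TPM and 16.9 to 20.4 TPM, with 95% confidence intervals of the log2 fold change of -0.12 to 0.08 and -0.21 to 0.21. The cleaved form of SREBP2 is a protein and was not measured.

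Of the trafficking and storage genes, *Stard4* and *Npc2* lay wholly above control and *Npc1* and *Soat1* overlapped, and 0 of 4 passed. *Stard4*, a carrier of sterol through the cytosol and a target of SREBP2, was at 23.5, 31.3 and 28.6 TPM with control siRNA and at 36.0, 35.0 and 33.3 TPM with NCOA4 siRNA. Its log2 fold change of 0.32 ± 0.103 did not pass (adjusted p = 0.133, limma) and was 0.21 without control siRNA 1, its lowest library. *Npc2*, the soluble protein that picks up cholesterol inside lysosomes, was at 157, 179 and 189 TPM with control siRNA and at 202, 204 and 207 TPM with NCOA4 siRNA. The knockdown libraries were within a narrow range above control, and the log2 fold change of 0.23 ± 0.0675 did not pass (adjusted p = 0.113, limma) and was 0.15 without control siRNA 1. *Npc1*, the membrane protein that receives cholesterol from NPC2, was at 13.7 to 16.7 TPM with a log2 fold change of -0.10 ± 0.0825. *Soat1*, which esterifies cholesterol for storage, was at 105 to 121 TPM with a log2 fold change of -0.05, or -0.09 without control siRNA 1.

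A test on rebuilt whole reads found more of the set. With limma-voom, 12 of the 31 genes with whole reads were higher at an adjusted p under 0.05 and 0 lower. Of the 13608 tested genes with whole reads, 943 were higher (6.93%) and 553 lower. The 12 were *Acly*, *Hmgcs1*, *Mvd*, *Idi1*, *Fdps*, *Cyp51*, *Msmo1*, *Nsdhl*, *Hsd17b7*, *Insig1*, *Stard4* and *Npc2*. Between the tests, the log2 fold change moved from 0.73 to 0.91 for *Fdps*, from 0.37 to 0.44 for *Tm7sf2*, from 0.29 to 0.30 for *Insig1* and from 0.32 to 0.34 for *Stard4*. The limma test on TPM was in turn sensitive to single libraries, with 3 genes past the threshold without control siRNA 1 (*Hmgcs1*, *Cyp51* and *Nsdhl*), 3 without control siRNA 2 (*Hmgcs1*, *Idi1* and *Insig1*), 1 without control siRNA 3 (*Mvk*), and 0 without any 1 of the NCOA4 siRNA libraries.

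Other lipid and sterol lists were read from the same fit, with 55 genes of which 52 were tested. Their median log2 fold change was 0.01, and 28 were above 0 and 24 below. At an adjusted p under 0.05 (limma), 1 rose (*Cyp27a1*) and 2 fell (*Nceh1* among them), with 0 past the study's fold threshold. Of all tested genes, 3.11% rose and 2.31% fell at that adjusted p. *Cyp27a1*, which adds a hydroxyl group to the side chain of cholesterol to make an oxysterol, was at 47.2, 50.9 and 48.0 TPM with control siRNA and at 64.9, 71.1 and 66.7 TPM with NCOA4 siRNA (log2 fold change 0.47 ± 0.0522, limma adjusted p = 0.00677). Its groups did not overlap, and its adjusted p was smaller than that of any of the 32 genes. The next of the oxysterol list by adjusted p were *Lpcat3* (-0.13, limma adjusted p = 0.203) and *Nr1h2* (-0.16, limma adjusted p = 0.355), and the median of its 5 tested genes was -0.07.

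*Nceh1*, which releases cholesterol from stored esters, fell from 40.1, 43.2 and 41.0 TPM to 35.4, 32.9 and 34.9 TPM (log2 fold change -0.27 ± 0.0506, limma adjusted p = 0.0324). Its groups did not overlap. In the same list of sterol transport and ester turnover, *Scarb2* (0.16) and *Gramd1b* (-0.18) came next by adjusted p and did not pass, and the median of 10 tested genes was 0.12. In the list of sterol-regulated degradation, *Erlin1* (0.13) and *Rnf139* (0.17) did not pass, and the median of 10 genes was 0.07.

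The genes of SREBP1 and fatty acid synthesis, the sister branch of SREBP control, had a median of -0.01 over 13 tested genes, and 0 passed in either direction. *Me1* (-0.21) and *Slc25a1* (-0.16), which feed this pathway with reducing power and citrate, had libraries wholly below control without passing (limma adjusted p = 0.160 and 0.174), and *Scd2*, a fatty acid desaturase, was at 0.07. The genes that use isoprenoids, such as prenyltransferases and enzymes of coenzyme Q, had a median of 0.00 over 14 genes and 0 passed. *Coq2* (0.16) and *Pggt1b* (0.20) had libraries wholly above control without passing (limma adjusted p = 0.123 and 0.141), and *Icmt* was at -0.11. Over the 52 genes, 10 lay wholly above control and 6 wholly below, beside 16.6% and 11.8% of all tested genes.

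**Figure D5:**
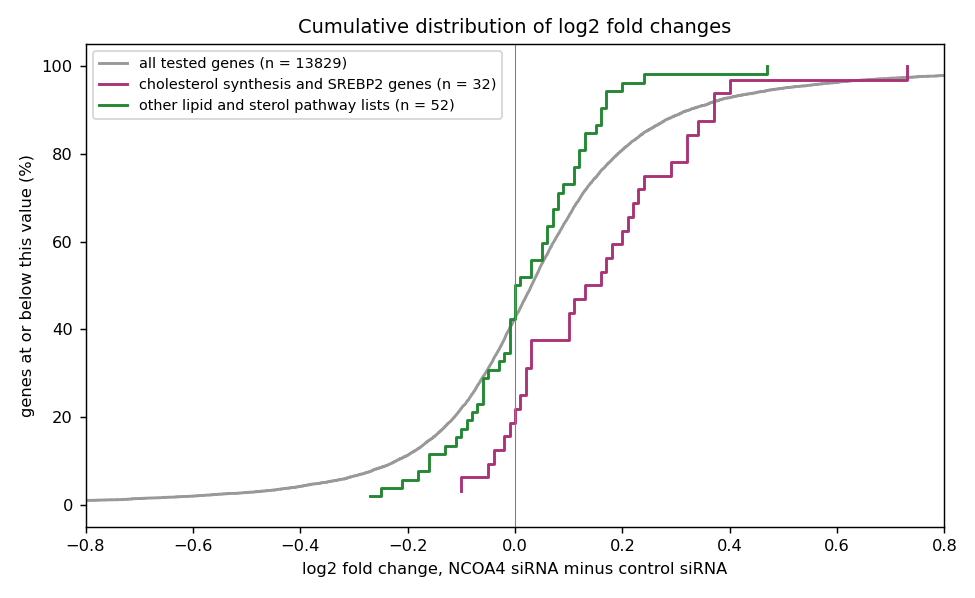
Curves give the share of genes (vertical axis, percent) at or below each log2 fold change (horizontal axis, with both tails outside the frame) for all 13829 tested genes, the 32 cholesterol synthesis and SREBP2 genes and the 52 tested genes of the other lipid and sterol lists. The curve of the 32 genes runs to the right of the other curves over most of its course, with medians of 0.14, 0.03 for all genes and 0.01 for the other lists.

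Some other measures also differed between the groups. Of the macrophage markers, *Csf1r* (log2 fold change 0.31, limma adjusted p = 0.0218) and *Adgre1* (0.61, limma adjusted p = 0.0248) rose, beside 3.11% of all tested genes at the adjusted threshold. Of the 8 markers, 5 lay wholly above control and *Cd68* wholly below, beside 16.6% and 11.8% of all tested genes. The median over the 8 was 0.17. The part of these shifts, and of the mitochondrial share of control siRNA 1, in the levels of the 32 genes was not tested. Marker genes of the other cell types checked were at 0.34 TPM or less. In single libraries, the median log2 difference of the 32 genes from the control mean was -0.09, 0.02 and 0.04 in control siRNA 1 to 3 and 0.16, 0.10 and 0.17 in NCOA4 siRNA 1 to 3, while that of all tested genes was -0.03, 0.03 and 0.00 and then 0.04, 0.02 and 0.03.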

How the data were processed

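RNA-seq libraries of J774 cells with control siRNA (n = 3) or NCOA4 siRNA (n = 3) were made from poly(A) RNA with a stranded kit. Per the labels, the authors used Trimmomatic (0.33), FastQC, HISAT2 (2.1.0), featureCounts and edgeR with mm10. They deposited TPM per gene, without scaling between libraries. The annotation release and strand setting are not given in the sources used here.

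Genes were named with GENCODE M21 (55227 of 55487 identifiers). A mean TPM of 0.5 or more was required, and log2(TPM + 0.5) was fitted with limma (3.58.1, R 4.3.3; eBayes with trend, no block), adjusting by Benjamini-Hochberg over 13829 genes. The pseudocount understates changes of low genes. Thresholds were an adjusted p under 0.05 and, for a call, a fold change also above 1.5. Single genes were compared by an exact two-sided permutation test over 20 arrangements. Whole reads were rebuilt from TPM and exon length for 98.6% of 21055 named genes above 0 (within 0.02 reads; not *Fdft1*), for depth and a limma-voom test. The fit was tested on simulated data.

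All 32 genes were described, and of each other list its called genes or, where there was none, the 3 with the smallest adjusted p, with *Ncoa4* as the target. A gene that this rule selects is not reported here. The genes and lists were chosen with earlier results of these data known. Alternatives changed the pseudocount (to 1 or 0.1), the filter (none, or a mean TPM from 5 up), the scaling (centring on the median, quantiles, or TPM without mitochondrial genes), the trend, the test (limma-voom), the block (replicate number) or the libraries (each left out).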

Additional observations from a re-analysis of the deposited data

How the results depend on the processing

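The median log2 fold change of the 32 genes stayed between 0.09 and 0.17 over the 16 alternatives. The number of genes at an adjusted p under 0.05 (4) was 2 with no filter, 1 without the eBayes trend, 3 with median centring and 3 without mitochondrial genes (*Cyp51* lost in both), 3 with a filter at a mean TPM of 5, 4 with quantile normalization (*Insig1* in place of *Fdps*), 12 with limma-voom on rebuilt reads and 0 to 3 when 1 library was left out. The 1 gene called with a fold change above 1.5 (*Fdps*) was not called (0 genes) without a filter, under a filter at a mean TPM of 5 (which leaves *Fdps* out), after quantile normalization, under the replicate block, or without any 1 library (0 to 0). The cause of the other changes was not tested.

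The deviations of same-numbered libraries from their group means had correlations over genes close to 0 (0.0283, -0.0185 and 0.0229). Libraries numbered 1 and 3 correlated best with their own number, and those numbered 2 did not. With 3 libraries per group, these values cannot decide whether the numbers pair the samples. With the replicate block 1 gene (*Mvd*) stayed at an adjusted p under 0.05, and 161 of all tested genes against 750. Over all tested genes the count was 499 of 21096 with no filter, 404 without the trend, 1496 with limma-voom, and 127 to 807 with 1 library left out.

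Of 508 values of single genes under these alternatives, 440 kept direction and side of the threshold, 32 lost and 13 gained the threshold, and 23 changed sign, all of them in 8 genes close to 0. With median centring, which moves the median of all genes from 0.03 to -0.03, *Pmvk* was -0.03, *Fdft1* -0.05, *Sqle* -0.03, *Dhcr7* -0.04 and *Insig2* -0.03. With quantile normalization *Fdft1* was -0.03, *Dhcr7* -0.01 and *Insig2* -0.03, without mitochondrial genes *Fdft1* was -0.01, and with limma-voom *Mbtps2* was 0.01. With 1 library left out, the ranges were -0.11 to 0.03 for *Acss2*, -0.01 to 0.05 for *Pmvk*, -0.03 to 0.05 for *Fdft1*, -0.03 to 0.06 for *Sqle*, -0.02 to 0.04 for *Dhcr7*, -0.04 to 0.02 for *Scap*, -0.08 to 0.08 for *Insig2* and -0.08 to 0.05 for *Mbtps2*. Depth limits *Fdps* most, at 34 to 82 reads per library. These are only the reads assigned to it and not to its overlapping gene or copies.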
